A study of Mus musculus with 3 samples.

Results

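The leptin receptor and gp130 family is described here as 10 genes chosen by name: the receptor subunits Lepr, Il6st, Lifr, Osmr, Il6ra, Il11ra1 and Cntfr, the Janus kinases Jak1 and Jak2, and the transcription factor Stat3. Of these, 9 were measured by a probe set annotated to 1 gene symbol, out of 19938 genes in all. No such probe set was found for Il11ra1, the interleukin-11 receptor alpha chain, which is not analysed here. Each of the 9 had 1 probe set, so no choice between probe sets entered their values.

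Cytokines of this family signal through receptors that have no enzyme activity of their own. Il6st encodes gp130, the subunit shared by the receptors for interleukin-6, leukemia inhibitory factor, oncostatin M, interleukin-11 and ciliary neurotrophic factor. Lepr, which binds the fat-derived hormone leptin, is a structural relative of gp130 that signals without it. Bound receptors activate JAK kinases, which phosphorylate STAT3, and SOCS3 is a feedback inhibitor of the same pathway. In mouse bone marrow, leptin receptor is a widely used marker of the perivascular stromal cells that overlap with CXCL12-abundant reticular (CAR) cells.

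The study used 3 single-colour Affymetrix arrays of stromal cells sorted at baseline from the marrow of tibia, femur and pelvis, to ask which stromal cells supply CXCL12 to stem cells. CAR cells came from 2 CXCL12-GFP knock-in mice and fill 2 arrays. The third array holds a combined sample from 3 Prx1-Cre Rosa26Ai9/+ Cxcl12gfp/+ mice, sorted as PDGFRa+ Sca+ CD45- lineage- cells and called PaS here. All groups thus carry a GFP allele of Cxcl12, and the PaS mice also carry Cre under a Prx1 sequence, which is active in limb mesenchyme, with the Ai9 reporter at Rosa26; the labels used here give no age or sex, and no zygosity for the CAR mice. Genotype, gate and array differ together between the groups and cannot be told apart, and the PaS group has no replicate. All values below are log2 of the deposited intensity unless a fold is named, differences are CAR minus PaS, and the test is limma's over all 19938 genes with Benjamini-Hochberg adjusted p under 0.05 as the threshold. An exact permutation test over 2 arrays against 1 cannot go below p = 0.333.

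The defining genes of the sorts go partly against the label of the PaS array. Pdgfra, the receptor in its gate, stood at 7.52 and 7.97 on the CAR arrays and at 4.33 on the PaS-labelled array. Ptprc, which encodes the CD45 that the gate excludes, stood at 5.11 and 5.01 on the CAR arrays and at 8.27 on the PaS-labelled array. All 9 CAR stroma markers were called higher in CAR cells, against 8.56% of all genes, and all 10 pan-leukocyte markers were called lower, against 6.42%. Of 6 measured markers of PDGFRa+ Sca-1+ stroma, however, 4 were also called lower in CAR cells, with Pdgfra the 1 called higher. Among the 4, Dpt stood at 2.60 and 2.27 on the CAR arrays and at 8.10 on the PaS-labelled array. Thy1 stood at 3.56 and 3.69 against 7.67. The medians of all genes were 3.74 and 3.75 for CAR and 3.77 for PaS, while the interquartile ranges were 1.96 and 2.28 against 1.35 log2 units, so the PaS values were less spread out. In sorted bulk samples, fewer cells of a type and less RNA per cell cannot be told apart.

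Of the 9 measured family genes, 5 rose in CAR cells and 0 fell, over a background of 8.56% of all genes called higher and 6.42% called lower (limma). The receptors Lepr, Lifr and Osmr rose most, and the shared subunit Il6st and the kinase Jak1 rose less. Stat3, Jak2, Cntfr and Il6ra did not pass. The median difference of the 9 was 1.49, against -0.10 over all genes. Both CAR arrays lay above the PaS-labelled array for 8 of the 9 genes, as they did for 37.4% of all genes, and at least 2-fold above it for 6 of the 9, as for 10.9% of all genes. Both lay below it for 1 of the 9, against 46.8% of all genes, and at least 2-fold below it for 0 of the 9, against 8.92%. Quantile normalization, which makes the spread of the arrays equal, gave a median of 0.86. With log2 of intensity plus 16, no gene passed among the members or over all genes (limma, smallest adjusted p = 0.0539), although 6 members and 5785 genes had an unadjusted p under 0.05.

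**Figure D1:**
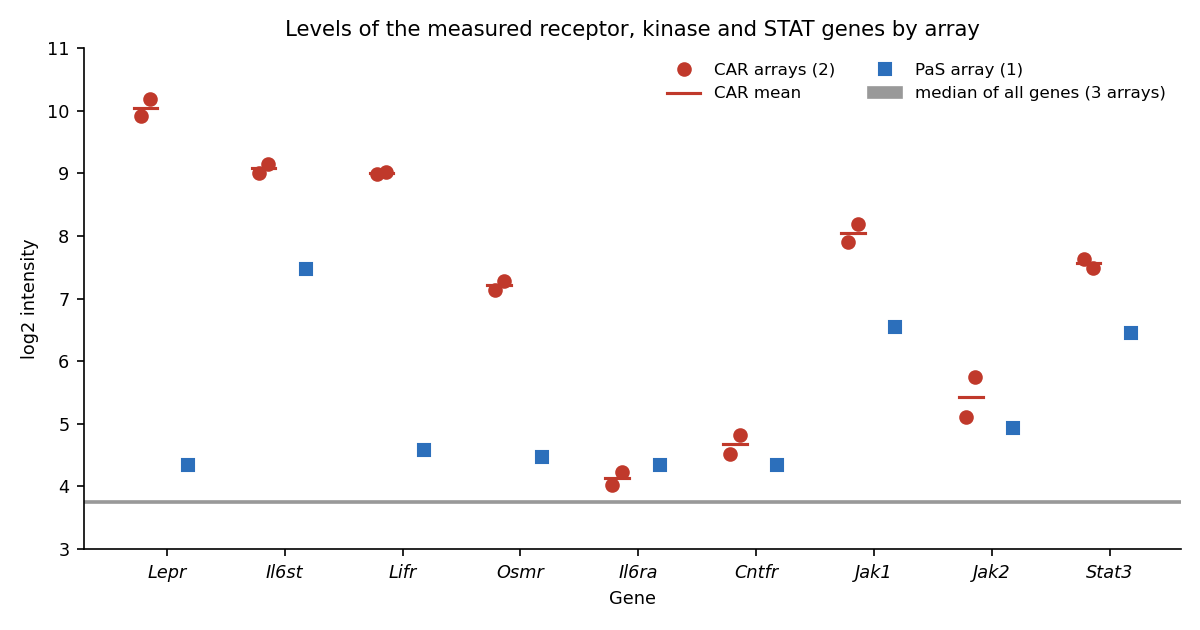
Log2 intensity of the 9 measured family genes, with the 2 CAR arrays as circles, their mean as a bar and the 1 PaS array as a square; the grey line marks the medians of all genes. Lepr, Lifr and Osmr stand far above the PaS value in both CAR arrays, whereas Il6ra, Cntfr and Jak2 lie within 1 log2 unit of it.

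Lepr showed the largest difference of the family and the one ranked 3 of all 19938 genes. Its intensity was 966 and 1165 on the CAR arrays, against 20.4 on the PaS-labelled array, or 9.92 and 10.19 against 4.35 on the log2 scale. Both CAR arrays were high, 0.27 log2 units apart, and both lay above the PaS value, as for 37.4% of all genes. The difference was 5.70 ± 0.30 (SE; 95% interval 4.95 to 6.46), a 52.1-fold difference (limma adjusted p = 0.00810). The PaS value lay at percentile 70.4 of all genes on that array, against percentiles 99.8 and 99.8 on the CAR arrays. Without detection calls, a value in this range cannot be told from background, so the fold is uncertain in size. The same holds for each fold below with a group near or under this level, such as Lifr, Osmr, Gab1, Shc1 and Steap4.

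Lifr, which pairs with gp130 to bind leukemia inhibitory factor, stood at 8.99 and 9.02 on the CAR arrays and at 4.58 on the PaS-labelled array. The CAR values were nearly equal and the difference was 4.42 ± 0.28 (SE; 21.5-fold, limma adjusted p = 0.00810). Osmr, the oncostatin M receptor chain that also pairs with gp130, stood at 7.14 and 7.28 on the CAR arrays and at 4.47 on the PaS-labelled array. Both CAR values lay above the PaS value, and the difference was 2.74 ± 0.28 (SE; 6.68-fold, limma adjusted p = 0.0129). Osmr and Lifr are direct neighbours among protein-coding genes on mouse chromosome 15 in the RefSeq gene table of GRCm38.p6. The genes beyond them on either side had smaller differences, 0.57 for Rictor and -0.24 for Egflam.

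The sequence before the start of these 3 genes is shown because they rose together and by the largest amounts in the family. Each run holds the 250 bases before an annotated start, 5′ to 3′ on the gene's strand, from RefSeq on GRCm38.p6. Promoter sequences were found for all 10 family genes, 18 windows in all. The STAT element TTCNNNGAA, which reads the same on both strands, occurred in 0 of the 10 genes' windows, against 7.02% of 32851 windows of the same length over all genes.  Lepr and Lifr have 2 annotated starts each, of which the upstream one is printed. This count says only that the letters are not in the windows.
Lepr, chr4:101717157-101717406, plus strand: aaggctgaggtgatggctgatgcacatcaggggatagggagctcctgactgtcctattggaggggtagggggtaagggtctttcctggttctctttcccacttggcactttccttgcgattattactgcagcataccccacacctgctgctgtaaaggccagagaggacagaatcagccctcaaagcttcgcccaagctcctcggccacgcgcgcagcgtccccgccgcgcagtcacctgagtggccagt
Lifr, chr15:7129322-7129571, plus strand: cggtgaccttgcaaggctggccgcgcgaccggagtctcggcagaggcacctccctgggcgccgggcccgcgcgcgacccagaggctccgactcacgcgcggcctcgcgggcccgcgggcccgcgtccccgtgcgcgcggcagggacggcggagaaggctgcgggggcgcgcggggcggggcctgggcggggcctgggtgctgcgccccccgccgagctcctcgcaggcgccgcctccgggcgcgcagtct
Osmr, chr15:6874314-6874563, minus strand: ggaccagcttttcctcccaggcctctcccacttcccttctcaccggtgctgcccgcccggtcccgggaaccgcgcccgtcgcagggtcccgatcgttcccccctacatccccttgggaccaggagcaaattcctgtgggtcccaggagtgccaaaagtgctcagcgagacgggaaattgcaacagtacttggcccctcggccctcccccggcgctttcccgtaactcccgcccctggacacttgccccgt
The GC content of these windows was 58.4% for Lepr, 82.4% for Lifr and 66.0% for Osmr, against a median of 52.4% over all windows. The printed windows held 10 CpG dinucleotides for Lepr, 43 for Lifr and 18 for Osmr, against a median of 6. The second Lifr start differed, with 50.8% GC and 3 CpG dinucleotides, both below the medians, while the second Lepr start had 54.8% GC and 10.

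Il6st was bright on every array. Its intensity was 513 and 570 on the CAR arrays, against 177 on the PaS-labelled array (log2 mean 9.08 ± 0.11 in CAR cells, SD, n = 2, against 7.46), at percentiles 99.4, 99.4 and 98.4 of all genes. The CAR arrays were both higher and close together, and the difference was 1.61 ± 0.28 (SE; 3.06-fold, limma adjusted p = 0.0297). After quantile normalization it was 1.06. The other measured receptor chains changed unequally with Il6st within the same arrays. The difference of Lepr, which signals without gp130, exceeded that of Il6st by 4.03 and 4.15 log2 units on the CAR arrays. That of Lifr exceeded it by 2.87 and 2.75, and that of Osmr by 1.13 and 1.12. For the dim alpha chains the gap to Il6st was negative, at -1.86 and -1.80 for Il6ra and -1.36 and -1.20 for Cntfr. These gaps do not depend on a constant scaling of an array. Their means after quantile normalization were 4.37 for Lepr, 2.92 for Lifr, 1.22 for Osmr, -1.53 for Il6ra and -1.05 for Cntfr. They are descriptions and carry no test. The sizes of the gaps are uncertain for a further reason. Il6ra and Cntfr on every array, and Lepr, Lifr and Osmr on the PaS-labelled array, lay where values cannot be told from background.

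The alpha chains for interleukin-6 and ciliary neurotrophic factor were dim on every array and did not pass. Il6ra, which together with gp130 makes a cell responsive to interleukin-6, stood at 4.03 and 4.24 on the CAR arrays and at 4.35 on the PaS-labelled array. It was the 1 family gene with both CAR values below the PaS value, by -0.22 ± 0.29 (SE; 95% interval -0.95 to 0.52, limma adjusted p = 0.637). Cntfr stood at 4.52 and 4.83 on the CAR arrays and at 4.34 on the PaS-labelled array, a difference of 0.34 ± 0.30 (SE; 95% interval -0.43 to 1.10, limma adjusted p = 0.473). Both genes lay between percentiles 57.6 and 71.7 on all 3 arrays. These levels are in the range where the PaS value of Lepr could not be told from background, so a change in either gene may not have been measurable.

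Of the signalling genes behind the receptors, Jak1, the main kinase bound to gp130, stood at 7.90 and 8.18 on the CAR arrays and at 6.55 on the PaS-labelled array. Both CAR values lay above the PaS value, and the difference was 1.49 ± 0.30 (SE; 2.81-fold, limma adjusted p = 0.0372), or 0.86 after quantile normalization. Jak2, the kinase bound to the leptin receptor, stood at 5.10 and 5.75 on the CAR arrays and at 4.93 on the PaS-labelled array. Its CAR arrays were the least alike of the family, 0.65 log2 units apart, and the difference of 0.49 ± 0.37 (SE; 95% interval -0.45 to 1.43) did not pass (limma adjusted p = 0.397); it was -0.05 after quantile normalization. Stat3 stood at 7.64 and 7.49 on the CAR arrays and at 6.44 on the PaS-labelled array. Both CAR arrays were over 2-fold higher, yet the difference of 1.12 ± 0.28 (SE; 95% interval 0.40 to 1.84) missed the threshold (limma adjusted p = 0.0574). It passed after centring each array on its median (limma adjusted p = 0.0351) and was 0.47 after quantile normalization (limma adjusted p = 0.253); its adjusted p ranged from 0.0351 to 0.253 over 7 alternatives.

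**Figure D2:**
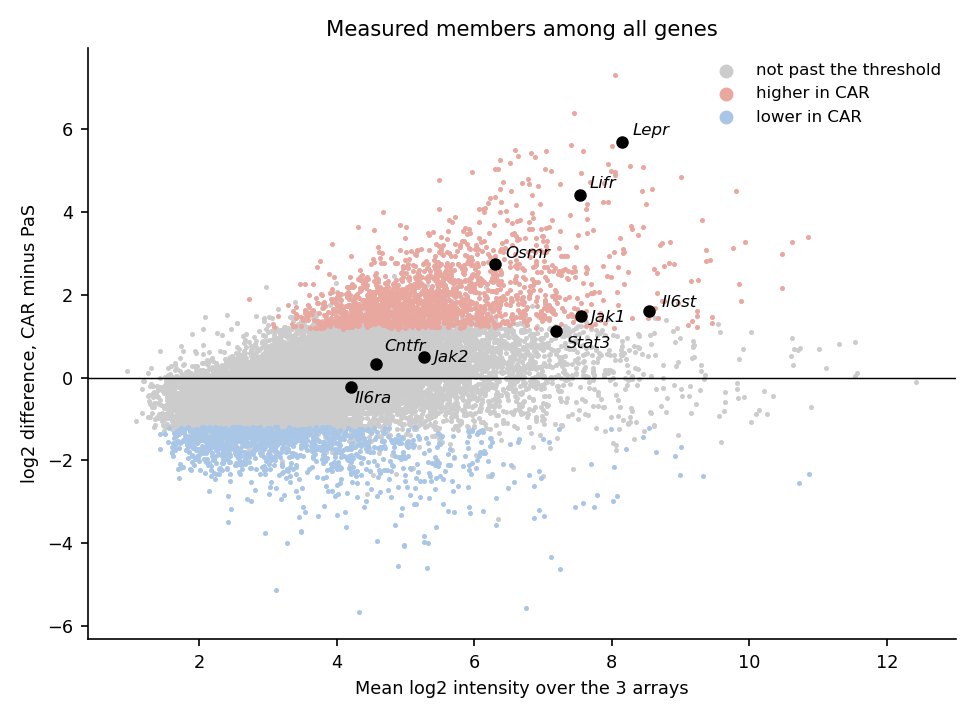
Each point is 1 of 19938 genes, with the mean log2 intensity over the 3 arrays on the x axis and the log2 difference CAR minus PaS on the y axis; red and blue points passed the threshold as higher and lower in CAR cells, and black points are the 9 family genes. Lepr, Lifr and Osmr lie at 5.70, 4.42 and 2.74, and Il6ra is the 1 member below 0.

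Lepr and Jak1 lie on mouse chromosome 4 with 3 protein-coding genes between them in the RefSeq table, Ak4, Dnajc6 and Leprot. Leprot, the direct neighbour of Lepr, encodes a small protein that limits the number of leptin receptors at the cell surface. It stood at 5.25 and 5.55 on the CAR arrays and at 5.03 on the PaS-labelled array, a difference of 0.37 ± 0.30 (SE) that did not pass (limma adjusted p = 0.428). The change of Lepr exceeded that of Leprot by 5.35 and 5.32 log2 units. Leprotl1, a relative of Leprot, rose 4.33-fold, with unequal CAR arrays at 6.19 and 7.13 against 4.54 (limma adjusted p = 0.0416). Ak4 and Dnajc6 differed by 0.62 and -0.97. Il6st likewise has Il31ra, the interleukin-31 receptor, as its direct neighbour on chromosome 13. Il31ra stood at 2.39 and 2.46 on the CAR arrays and at 2.93 on the PaS-labelled array, and its difference of -0.51 did not pass.

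The genes with values over the 3 arrays most like those of Lepr, by Euclidean distance between mean-centred log2 values among 11214 named genes at or above the median level, were Igfbp4, Kng1, Esm1, Pappa, Gpx8 and Vegfc, at distances of 0.09 to 0.29. In all, 35 genes lay within 1 log2 unit of Lepr. Igfbp4, an insulin-like growth factor binding protein and the nearest, stood at 9.94 and 10.12 on the CAR arrays and at 4.40 on the PaS-labelled array. Pappa, a protease that cleaves Igfbp4, stood at 9.38 and 9.43 on the CAR arrays and at 3.93 on the PaS-labelled array. With 3 arrays, likeness means mainly a difference of similar size.

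The ligands of the family were mostly dim. Of 11 measured among 13 listed, 0 rose and 1 fell in CAR cells, with a median difference of -0.18. These counts are near the 8.56% of all genes called higher and the 6.42% called lower. A CAR mean below the median level of all genes was seen for 7 of the 11. The 1 that fell was Ebi3, a subunit of interleukin-27, at 3.51 and 3.49 on the CAR arrays, against 5.42 on the PaS-labelled array (3.78-fold lower, limma adjusted p = 0.0221). Il6 stood at 3.08 and 3.72 on the CAR arrays and at 2.04 on the PaS-labelled array. Its difference of 1.36 ± 0.37 (SE) missed the threshold (limma adjusted p = 0.0664), and all 3 values lay below the median level. It passed after centring (limma adjusted p = 0.0316), after quantile normalization (1.80, limma adjusted p = 0.00738) and with a robust prior (limma adjusted p = 0.0443), and its adjusted p ranged from 0.00738 to 0.229 over 6 alternatives. Clcf1, a cytokine that binds the ciliary neurotrophic factor receptor, stood at 4.85 and 4.38 on the CAR arrays and at 3.64 on the PaS-labelled array, and did not pass (limma adjusted p = 0.104). Il27, the other interleukin-27 subunit, had a difference of 0.42 and Lif, leukemia inhibitory factor, one of 0.04. Leptin itself, encoded by Lep, differed by -0.64, Osm by -0.67, Il11 by -0.94, Ctf1 by -0.15, Ctf2 by -0.84 and Il31 by -0.18. None of these 8 passed, although after quantile normalization Osm and Ctf2 were called lower (limma adjusted p = 0.0490 and 0.0304).

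Of 6 other receptors related to gp130, 0 rose and 1 fell, which with so few genes is near the background of 8.56% and 6.42%. Csf3r, the receptor for granulocyte colony-stimulating factor on neutrophils, stood at 4.46 and 4.84 on the CAR arrays and at 6.70 on the PaS-labelled array (4.13-fold lower, limma adjusted p = 0.0237). Of the 10 neutrophil markers 8 fell, and their summed intensity was 2967 and 2675 on the CAR arrays against 15593 on the PaS-labelled array. Their part in the Csf3r difference was not tested.

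The remaining kinases, STAT factors, inhibitors and adaptors held 7 genes that rose and 1 that fell, of 29 measured, over the background of 8.56% called higher and 6.42% called lower. Of 6 kinases and STAT factors, 1 rose, a count near that background. This was Stat6, the factor used by the interleukin-4 receptor, at 6.27 and 6.29 on the CAR arrays, against 4.43 on the PaS-labelled array (3.60-fold, limma adjusted p = 0.0231). Of 15 inhibitors, 3 (20.0%) rose and 1 (6.67%) fell, the second share being near the background, with a median difference of 0.63 against -0.10 over all genes. Socs3 stood at 7.38 and 7.35 on the CAR arrays and at 5.05 on the PaS-labelled array, a difference of 2.31 ± 0.28 (SE; 4.96-fold, limma adjusted p = 0.0164). Its second probe set gave a difference of 3.18. Socs5, a relative of Socs3, was 3.09-fold and Pias1, a binding inhibitor of STAT factors, 2.85-fold higher. Ptpn6, the phosphatase SHP-1 of blood cells, was 3.73-fold lower (4.34 and 4.48 against 6.31; limma adjusted p = 0.0229), with all 10 pan-leukocyte markers lower too; their part was not tested. Ptpn2 and Socs6, which did not pass, had probe sets of opposite sign. Socs2 did not pass by its brighter probe set, with a difference of 0.38. Its second probe set stood at 5.11 and 4.91 on the CAR arrays and at 2.91 on the PaS-labelled array, a difference of 2.10. The count for the inhibitors thus depends on the probe set chosen for Socs2.

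Of 8 adaptors, 3 rose and 0 fell, against 8.56% and 6.42% of all genes, with a median of 0.90 against -0.10. Gab1, a docking protein for the phosphatase SHP-2 downstream of gp130, stood at 7.16 and 7.06 on the CAR arrays and at 3.61 on the PaS-labelled array (11.3-fold, limma adjusted p = 0.0103). Irs1, the insulin receptor substrate, was 6.65-fold higher by its brighter probe set, with a difference of 2.73, and its second probe set differed by 0.89. Shc1, an adaptor of the Ras pathway, was 5.95-fold higher, with CAR arrays at 6.47 and 5.79 against 3.56. Ptpn11, which encodes SHP-2, and Grb2, the adaptor that links it to Ras, differed by -0.27 and 0.02 and did not pass.

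Of 15 measured genes that STAT3 is known to activate, 2 rose and 2 fell, which is 13.3% in each direction against the 8.56% and 6.42% of all genes, and the median difference was 0.44. Steap4, a metalloreductase of fat and stromal cells, stood at 7.84 and 8.17 on the CAR arrays and at 3.82 on the PaS-labelled array (18.2-fold, limma adjusted p = 0.00914). Vegfa, the endothelial growth factor, stood at 7.84 and 7.94 on the CAR arrays and at 4.85 on the PaS-labelled array (8.20-fold, limma adjusted p = 0.0116). Timp1, an inhibitor of matrix proteases, was 2.47-fold lower (5.59 and 5.66 against 6.93; limma adjusted p = 0.0420), and Mcl1, a survival factor, 2.36-fold lower (6.84 and 6.81 against 8.06; limma adjusted p = 0.0460). Both fell short of the threshold when the variance was allowed to trend with intensity, at limma adjusted p = 0.0545 and 0.0601. Bcl3, Cebpd, Fos, Junb and Myc had differences of 1.01 to 1.16 and did not pass.

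The windows before the starts of Socs3, Steap4 and Gab1 are shown because these 3 genes rose and hold the STAT element, in capitals; they were picked after their values were seen. Of 59 listed family and pathway genes with a RefSeq promoter, 6 hold the element in at least 1 window, and the other 3, Icam1, Il12rb2 and Il31ra, did not pass the test. Over all genes the element occurs in 7.02% of 32851 windows, a share counted per window and not per gene. A link between the element and the rise was not tested. The first base of the element lies 154 bases before the start in Socs3, 116 in Steap4 and 12 in Gab1, which has 2 annotated starts with overlapping windows, 1 of them with the element. The printed windows are on GRCm38.p6.
Socs3, chr11:117969367-117969616, minus strand: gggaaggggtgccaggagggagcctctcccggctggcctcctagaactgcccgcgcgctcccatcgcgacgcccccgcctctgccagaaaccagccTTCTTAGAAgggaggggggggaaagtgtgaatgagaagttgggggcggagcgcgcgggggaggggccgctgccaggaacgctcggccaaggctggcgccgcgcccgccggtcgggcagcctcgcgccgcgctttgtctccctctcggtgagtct
Steap4, chr5:7960222-7960471, plus strand: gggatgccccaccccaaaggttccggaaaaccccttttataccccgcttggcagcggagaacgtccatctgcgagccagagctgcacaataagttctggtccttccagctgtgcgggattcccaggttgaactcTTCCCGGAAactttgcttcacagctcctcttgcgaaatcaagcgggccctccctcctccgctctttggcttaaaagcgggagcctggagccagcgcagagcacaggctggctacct
Gab1, chr8:80880480-80880729, minus strand: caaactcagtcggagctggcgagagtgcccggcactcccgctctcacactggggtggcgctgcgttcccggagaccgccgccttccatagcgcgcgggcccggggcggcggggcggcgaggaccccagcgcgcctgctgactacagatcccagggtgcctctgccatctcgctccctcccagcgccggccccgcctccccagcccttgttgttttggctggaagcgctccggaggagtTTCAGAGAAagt
A match describes the letters of a window, not binding, and no measurement of binding was used here.

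**Figure D3:**
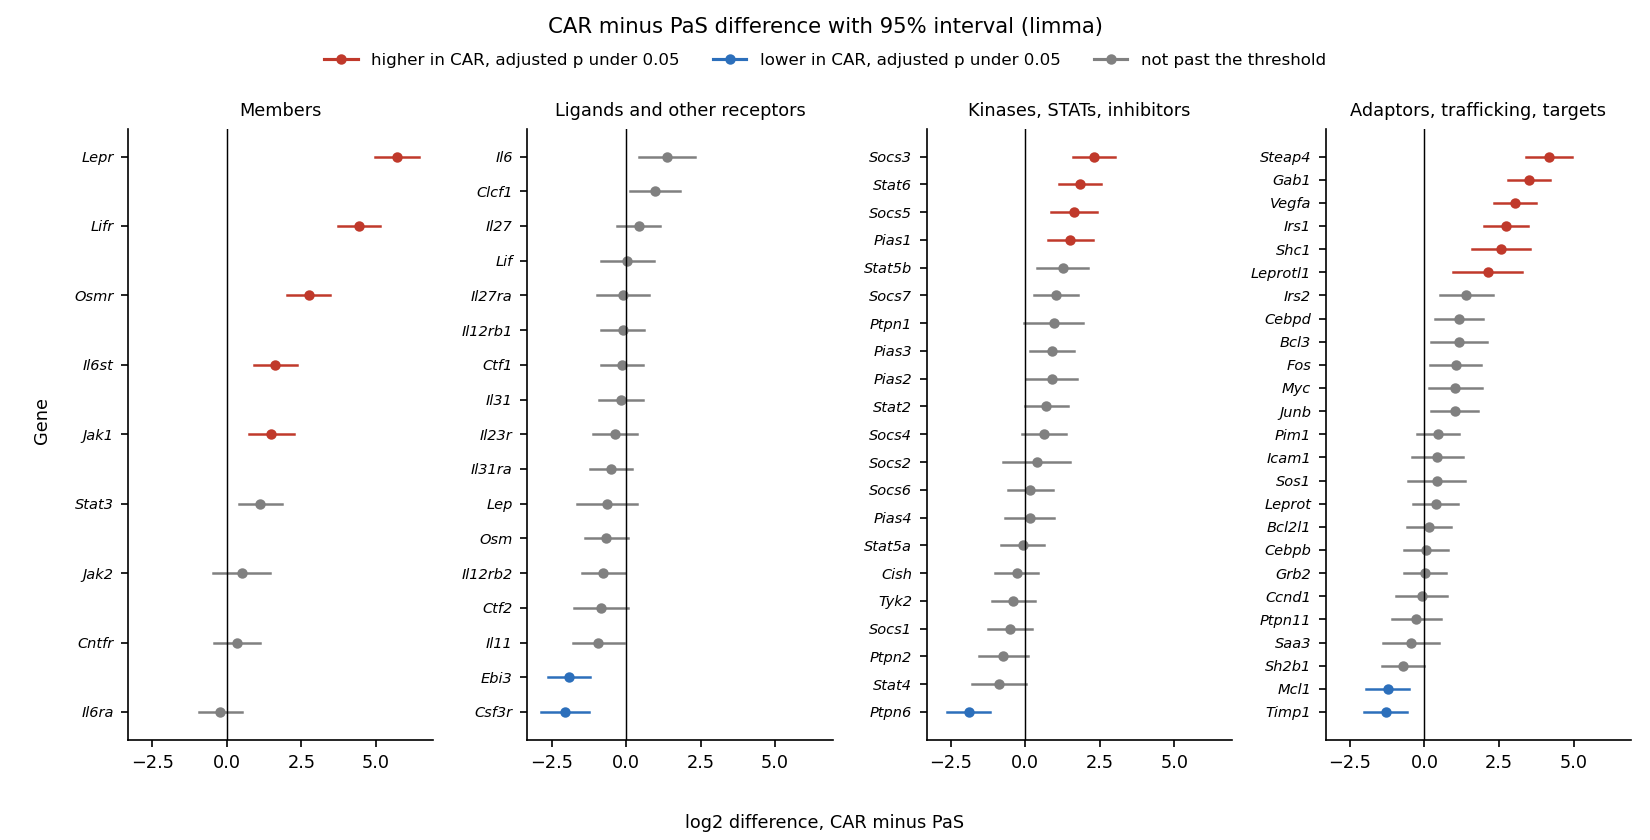
Log2 difference CAR minus PaS (points) with limma's 95% intervals (lines) for the 9 family genes and 63 pathway genes, 1 row a gene; red passed as higher in CAR cells, blue as lower and grey did not pass. Of the pathway genes 10 passed as higher, led by Steap4 at 4.18, and 5 as lower, led by Csf3r at -2.05.

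Over all pathway lists, 10 of 63 measured genes rose and 5 fell, with a median of 0.16 against -0.10 over all genes. The share that rose, 15.9%, is above the 8.56% of all genes, and the share that fell, 7.94%, is near the 6.42%. After quantile normalization 12 of the 63 rose and 12 fell, 19.0% in each direction, against 13.2% of all genes called higher and 14.2% called lower under that setting.

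The family was read beside markers of the cells in each sort. The CAR stroma markers had differences of 2.82 to 4.91 with a median of 3.84, and their summed intensity was 5903 and 6932 on the CAR arrays against 552 on the PaS-labelled array. Among these, Cxcl12 differed by 3.27 and Pdgfra by 3.42. Lepr and Lifr thus differed by more than the median stroma marker, and Osmr, Il6st and Jak1 by less than the lowest of them. Of 6 measured markers of PDGFRa+ Sca-1+ stroma, 4 fell and 1, Pdgfra, rose. The 4 were Dpt, with a difference of -5.66, Thy1 (-4.05), Cd34 (-2.35) and Dpp4 (-1.45). Ly6a, which encodes Sca-1, was not measured by a probe set with 1 symbol. The pan-leukocyte list summed to 670 and 680 on the CAR arrays against 4422 on the PaS-labelled array. Of the other lists, 3 of 9 macrophage, 4 of 6 B lymphoid, 2 of 5 T and NK, 1 of 3 erythroid and 4 of 7 endothelial markers fell, and 0 rose. Over all genes, 6.42% were called lower and 8.56% higher. No gene was at 0 on any array, so a marker value above 0 does not show that its cell type was present. The part of these cell types in the differences of the family was not tested.

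**Figure D4:**
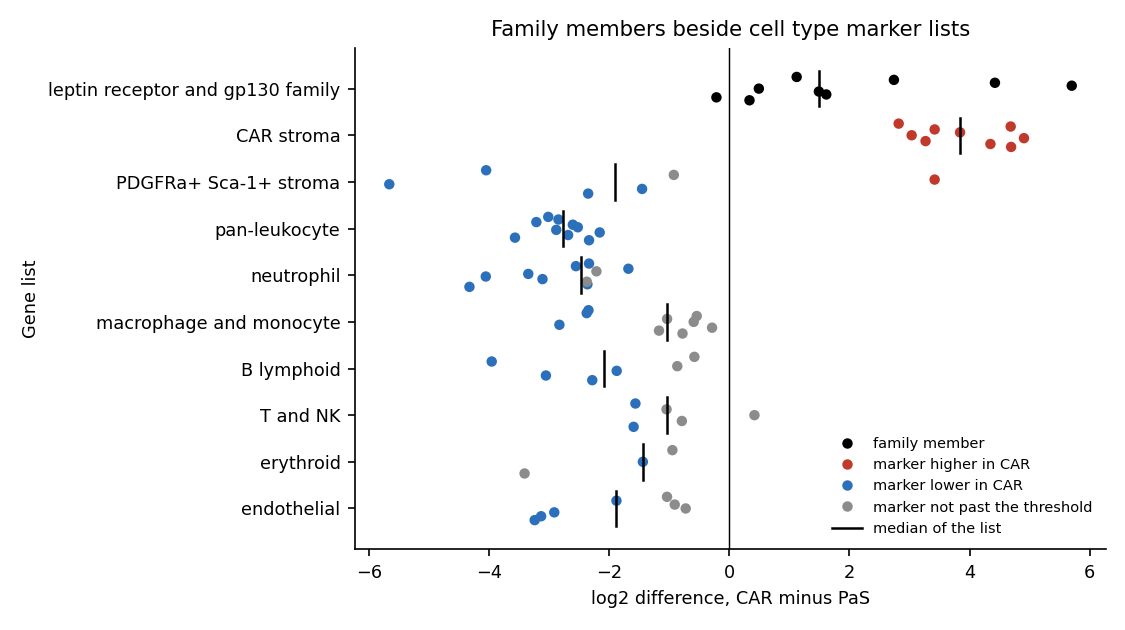
Each point is the log2 difference CAR minus PaS of 1 gene, by list, with the list's median as a vertical bar; black points are family genes, red and blue points are markers that passed as higher and lower in CAR cells, grey points did not pass. The family spans -0.22 to 5.70, the CAR stroma markers 2.82 to 4.91 and the pan-leukocyte markers -3.57 to -2.16.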

How the data were processed

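Total RNA of sorted stromal cells was amplified with a NuGEN whole-transcript kit for small inputs and hybridised to 3 single-colour Affymetrix arrays, per the labels' protocols. The deposited intensities are on a linear scale, 1 per probe set, and were made by the authors with Affymetrix Expression Console and RMA, per the submitters' processing notes; neither tool versions nor a genome build could be taken from the labels. The number of arrays limits the precision.

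The platform annotation paired 21789 of 35556 probe sets with 1 gene symbol and 1621 with several, and 12146 are unnamed here; identifiers of 21698 matched the RefSeq table, from which symbols were taken. Log2 was taken with no pseudocount, and the probe set with the highest mean represented each of 19938 genes. Samples were grouped by their titles. limma 3.58.1 in R 4.3.3 (lmFit, eBayes, two-sided) compared 2 CAR arrays with 1 PaS array, with 1 residual and 4.20 prior degrees of freedom; the spread comes from the CAR arrays, and whether these are separate mice is read from the design text. The script was tested on simulated data.

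The family genes, lists and tests were chosen with earlier results of these data known. Named are all measured members and ligands, up to 4 called genes with the largest differences per other list, and the 6 genes nearest to Lepr; others named beside them were added after their values were seen. Alternatives were centring, quantile normalization, a filter at the median level, an offset of 16, the mean of all probe sets, a trended or robust prior, and leaving out each CAR array.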

Additional observations from a re-analysis of the deposited data

How the results depend on the processing

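Of the 40 named genes, 38 kept their direction under every alternative run for them, which was 9 for 36 genes and 8 for Lep, Il6, Lif and Il31, which lie below the median level; the exceptions were Jak2 (-0.048 after quantile normalization) and Lif (-0.24 without CAR replicate 1), neither of them called. The median of the family was 1.35 to 1.63 with 1 CAR array left out and 0.86 after quantile normalization. That normalization called 2636 genes higher and 2831 lower, against 1706 and 1281, and 12 pathway genes lower, against 5; Il6 passed as higher and Osm and Ctf2 as lower under it. A trended prior called 3 pathway genes lower. With log2 of intensity plus 16, limma called 0 genes, 0 members and 0 pathway genes in either direction, although 5785 genes had an unadjusted p under 0.05; the cause was not tested. Elsewhere the family count was 5 or 6, with Stat3 as the sixth after centring, with the median-level filter and with a robust prior; all 9 members passed that filter. Adjusted p over the alternatives ran from 0.000202 to 0.0539 for Lepr, 0.000319 to 0.0539 for Lifr, 0.00157 to 0.0539 for Osmr, 0.0108 to 0.0590 for Il6st and 0.0153 to 0.0773 for Jak1 (limma). No paired analysis was possible because the CAR arrays and the pooled PaS array came from different mice. The PaS array could not be left out, being the only one of its group, and without detection calls dim values cannot be told from background.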
